A study of Mus musculus with 30 samples.

Results

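PDPN+ cells from a culture with BMS493, a compound that acts on retinoic acid receptors, were compared with PDPN+ cells cultured alone. The comparison rests on 6 of the 30 libraries of a mouse RNA-seq series on macrophages and vitamin A, taken by their labels as 3 BMS493 libraries and 3 libraries of culture alone. Genes whose mean level in macrophages cultured alone was over 4 times that in PDPN+ cells cultured alone were set apart as possible macrophage carry-over.

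The labels give the 3 BMS493 libraries a treatment with BMS493 at 1 µM and the 3 libraries of culture alone no treatment. In all 6 libraries the cells were sorted for the surface protein PDPN (podoplanin) straight into lysis buffer, and the labels mark the cells as om_pdpn. A further 3 libraries came from PDPN+ cells co-cultured with macrophages and 3 from PDPN+ cells that shared medium with macrophages across a transwell. Each of the 4 PDPN+ groups has 1 library from each of 3 values of the label mbatch, which the replicate numbers 1, 2 and 3 follow. Macrophage libraries, sorted as F4/80+, are used only for the level of each gene in macrophages. Strain, sex, age and culture time are not given in the labels. Whether macrophages were present in the cultures with BMS493 is not stated in the labels, so that an effect of BMS493 and one of partner cells cannot be told apart against culture alone, and co-culture values are therefore set beside the main results.

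Retinoic acid, made from vitamin A (retinol) by way of retinal, binds the receptors RARα, RARβ and RARγ, which sit on DNA with RXR partners. Without ligand the receptors hold corepressors and keep their target genes low, and retinoic acid exchanges these for coactivators. BMS493 is known as an inverse agonist of these receptors: it strengthens corepressor binding and so lowers target genes below their unliganded level. In the body cavities, mesothelial cells and PDPN+ stromal cells are known as a source of retinoic acid for resident macrophages.

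The 6 libraries held between 29350158 and 51206582 counts of uniquely aligning reads, and all 30 between 29350158 and 54099085. The BMS493 libraries were made from 25000, 22909 and 8229 cells, against 25000 cells for each library of culture alone. Co-culture replicates 1, 2 and 3 were made from 25000, 3730 and 2148 cells. An effect of cell number was not tested. No pair of replicates agreed within sampling noise, the closest having a chi-square of 56.5 per degree of freedom. Podoplanin itself (Pdpn) measured 197, 98.6 and 215 CPM (counts scaled to library size) with BMS493, against 194, 156 and 175 CPM in culture alone, so that both groups carried the sorting marker at overlapping levels (log2 fold change -0.07, SE 0.34, adjusted p = 0.942). One library of culture alone, replicate 3, stood apart. Across the 19134 genes tested, its log2 levels correlated at 0.939 and 0.919 with the other libraries of its group, which correlated at 0.987 with each other, and at 0.964 with transwell replicate 1, which stood apart with it. Its collagen I level showed the gap, with Col1a1 at 726 CPM against 3653 and 5404 CPM in replicates 1 and 2. For the genes described singly, results are also given without these 2 libraries where that changes the call.

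In edgeR's test, BMS493 cultures differed from culture alone in 2 ways. A short list of genes fell, with known retinoic acid targets among them. In the main fit the genes called higher were almost all in the carry-over class, while some other settings called more higher genes outside it. Of 19134 genes tested, 46 (0.24%) passed an adjusted p of 0.05 in edgeR's quasi-likelihood test. There were 31 higher genes (0.162%), of which 30 were in the carry-over class, and 15 lower genes (0.0784%), all outside the class (0.0857% of the 17513 tested genes there). DESeq2 called 416 higher (2.17%) and 277 lower genes (1.45%), and 428 of these 693 genes lay outside the carry-over class. More of them lay outside the class than were lower, so that higher genes lay outside it as well. All 46 had non-overlapping values between BMS493 and culture alone, which 9.45% of all genes tested had upward and 8.86% had downward. With the mbatch number as a replicate block, 20 genes rose and 21 fell, and 25 of these 41 genes lay outside the class. Of those called with the block, 13 of the higher and 8 of the lower genes were shared with the fit without it. The counts depended on single libraries: 27 genes were called without BMS493 replicate 1, 0 without BMS493 replicate 2, 22 without BMS493 replicate 3, 6 without replicate 1 of culture alone, and 0 without replicate 2 or without replicate 3 of culture alone. All 46 genes kept their direction in each of those fits, with adjusted p-values of at most 0.237. Nothing in the labels says whether replicates are separate animals or cultures, so the p-values measure the spread between these samples only, and in bulk RNA fewer cells of a type and less RNA per cell cannot be told apart.

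**Figure D1:**
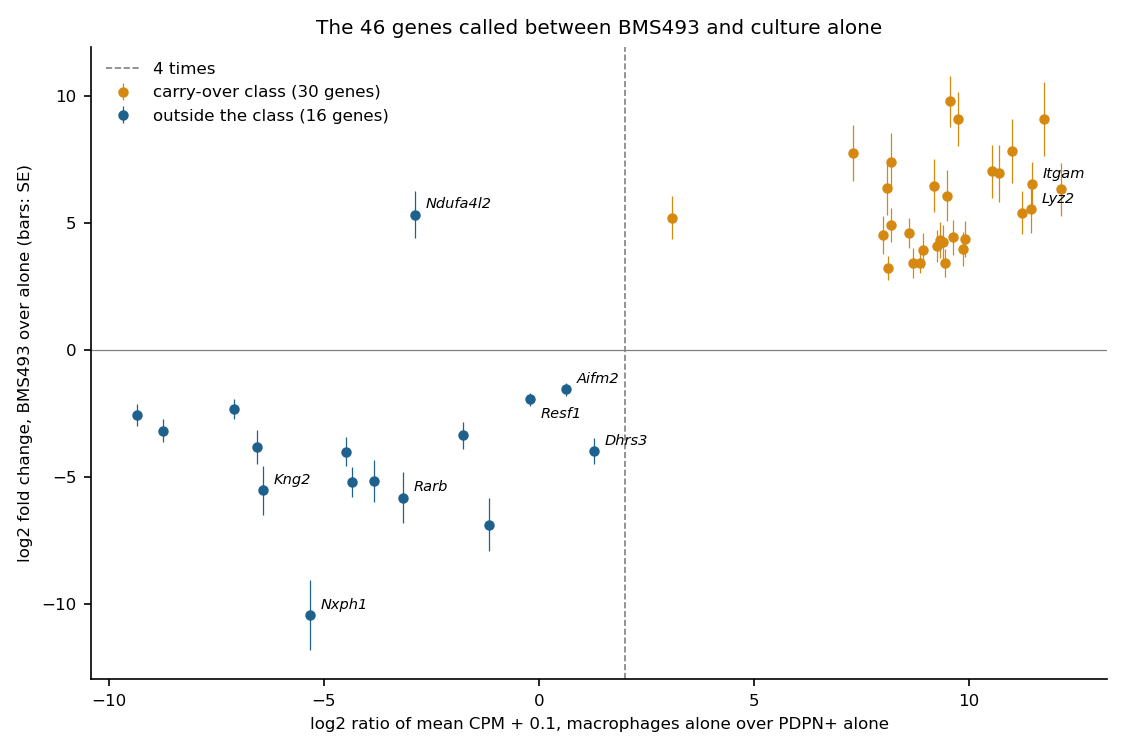
Each point is 1 of the 46 called genes, with the log2 ratio of its mean CPM in macrophages alone over PDPN+ cells alone (0.1 CPM added to both) on the x axis and its log2 fold change of BMS493 over culture alone with its SE on the y axis. Both axes have the libraries of culture alone as their baseline. The 30 genes right of the dashed line at 4 times were all higher with BMS493, and 15 of the 16 genes left of it were lower; the position of Nxph1, which had no count with BMS493, depends on the small prior count of the fit.

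Among direct retinoic acid targets, the receptor gene Rarb, which retinoic acid induces through its own receptors, was nearly silent with BMS493. Rarb measured 0.106, 0 and 0.641 CPM in BMS493 cultures, against 20.9, 18.1 and 5.24 CPM in culture alone. The groups did not overlap, and replicate 3 of culture alone was the lowest of its group. The means were 0.249 ± 0.344 CPM with BMS493 and 14.8 ± 8.36 CPM in culture alone (SD, n = 3 each), and Rarb fell by 5.81 on the log2 scale (SE 1.01, adjusted p = 0.049 by edgeR). The call lies at the threshold: the adjusted p was 0.0501 with the replicate block, 0.05004 without the 2 libraries that stood apart, and lay between 0.0171 and 0.173 with 1 library left out. Within the mbatch of replicates 1, 2 and 3 the log2 ratio, with 0.5 CPM added, was -5.15, -5.22 and -2.33. Rarb measured 24.3, 28.1 and 22.1 CPM in co-culture and 12.1, 22.0 and 32.9 CPM in transwell culture, so that all 9 PDPN+ libraries without BMS493 stood above all 3 with it.

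Dhrs3, a reductase that turns retinal back into retinol and that retinoic acid induces as a brake on its own synthesis, fell most firmly among the retinoid genes. It measured 2.78, 8.40 and 7.07 CPM with BMS493, against 96.0, 85.1 and 102.5 CPM in culture alone. The 2 groups were far apart, and the values in culture alone were close to each other. Dhrs3 fell by 3.98 on the log2 scale (SE 0.52, adjusted p = 0.0275 by edgeR), and the within-mbatch log2 ratios were -4.88, -3.27 and -3.77. Co-culture libraries held 233, 200 and 75.8 CPM, and BMS493 was lower than co-culture as well (log2 fold change -4.82, adjusted p = 0.0297 by edgeR). Macrophages themselves express Dhrs3, at a mean of 93.7 CPM with BMS493 and 229 CPM in culture alone, a ratio to PDPN+ cells under the 4 times that define the carry-over class.

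The promoter of Rarb is shown because it holds the textbook retinoic acid response element, a direct repeat of half-sites that RAR and RXR bind, and those of Cyp26a1 and Dhrs3 because they are the classical retinoic acid breakdown gene and the called gene above. Each is the 250 bases upstream of the start in RefSeq on GRCm38.p6, read 5′ to 3′ on the gene's strand, with the repeat in capitals. The Rarb window is chr14:16575477-16575726 on the minus strand, inside the longer gene span of the annotation used for coordinates. The Cyp26a1 window is chr19:37697558-37697807 and the Dhrs3 window chr4:144892577-144892826, both on the plus strand.
Rarb: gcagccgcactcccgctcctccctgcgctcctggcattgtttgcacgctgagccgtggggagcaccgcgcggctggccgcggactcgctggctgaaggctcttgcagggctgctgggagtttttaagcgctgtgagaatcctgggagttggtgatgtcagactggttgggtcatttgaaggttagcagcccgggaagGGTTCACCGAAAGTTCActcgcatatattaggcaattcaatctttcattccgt
Cyp26a1: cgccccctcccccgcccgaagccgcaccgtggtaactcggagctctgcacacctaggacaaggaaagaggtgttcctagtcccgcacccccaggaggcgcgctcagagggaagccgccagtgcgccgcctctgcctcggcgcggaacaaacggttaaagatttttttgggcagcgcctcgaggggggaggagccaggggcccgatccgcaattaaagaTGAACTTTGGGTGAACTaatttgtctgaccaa
Dhrs3: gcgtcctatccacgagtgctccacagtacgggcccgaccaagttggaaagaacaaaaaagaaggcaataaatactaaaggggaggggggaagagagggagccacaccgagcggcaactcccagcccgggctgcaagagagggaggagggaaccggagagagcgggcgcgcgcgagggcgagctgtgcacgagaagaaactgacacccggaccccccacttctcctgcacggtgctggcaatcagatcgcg
The search was for a pair of half-sites, each AGGTCA or GGGTCA or the variants AGTTCA or GGTTCA, as a direct repeat with a gap of 5 bases on either strand. The Rarb repeat begins 53 bases upstream of the start. The Cyp26a1 repeat begins 32 bases upstream and reads on the opposite strand. None of the 3 Dhrs3 windows of RefSeq held the repeat, which says only that these letters are absent there. The repeat was found in 29 of 32851 promoter windows (0.0883%), belonging to 28 genes of which 7 were tested here: Blvrb, Cfap45, Cyp26a1, Prokr2, Prss27, Rarb and Tnfsf13b. Of these 7 genes Rarb was called, and 1 of the 9 lower called genes with a window held the repeat. Blvrb, with 21.0 CPM on average with BMS493 and 36.2 CPM in culture alone, did not pass the test (log2 fold change -0.85, adjusted p = 0.589 by edgeR).

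Transglutaminase 2 (Tgm2), a protein cross-linking enzyme long used as a retinoic acid readout in macrophages, lay below culture alone in every library. Tgm2 measured 66.5, 17.4 and 20.5 CPM with BMS493, against 204, 165 and 92.1 CPM in culture alone, and was not called by edgeR (log2 fold change -2.14, SE 0.59, adjusted p = 0.196), while DESeq2 called it (adjusted p = 0.0146). The co-culture libraries had 316, 242 and 101 CPM of Tgm2.

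The retinoic acid-degrading enzymes were scarce in these cells with or without BMS493. Cyp26b1 had 1 count over the 3 BMS493 libraries, against 81 counts over the 3 libraries of culture alone, a ratio of culture alone to BMS493 of 82.6 with a 95% interval of 14.4 to 3301 from counting error alone (adjusted p = 0.0911 by edgeR and 0.00221 by DESeq2). Cyp26a1 measured 1.88, 0.994 and 0 CPM with BMS493, against 1.44, 3.89 and 0.678 CPM in culture alone, fully overlapping (log2 fold change -1.05, SE 1.61, adjusted p = 0.792 by edgeR). Crabp2, which delivers retinoic acid to the receptor, was also low in both groups, at 0.741, 0.646 and 1.57 CPM with BMS493 against 0.429, 0.947 and 1.96 CPM in culture alone. Co-culture libraries were higher, with 7.85, 12.9 and 18.2 CPM of Crabp2.

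Of the 16 tested members of the retinoic acid response list, edgeR called 2 lower (Rarb and Dhrs3) and 0 higher. DESeq2 called 5 lower and 0 higher, where it called 1.45% of all genes lower. In the list, 6 lay below all 3 libraries of culture alone, which is 37.5% against 8.86% of all genes. The list had a median log2 fold change of -0.97, against -0.03 over all genes tested. Without replicate 3 of culture alone, 8 of the 16 lay below replicates 1 and 2, against 16.9% of all genes. Not every member was low. Bmper, a BMP-binding secreted protein, measured 332, 400.4 and 157 CPM with BMS493, against 171, 242 and 79.4 CPM in culture alone (log2 fold change 0.87, SE 0.62, adjusted p = 0.589 by edgeR). Rarres1 and Rarres2, both named for their response to retinoids, averaged 9.74 ± 8.63 and 15.2 ± 13.8 CPM with BMS493, against 31.4 ± 10.5 and 27.0 ± 16.4 CPM in culture alone (SD, n = 3 each). Neither passed the test, with adjusted p-values of 0.557 for Rarres1 and 0.669 for Rarres2 by edgeR. Hic1, a transcriptional repressor, the RAR corepressor Nrip1, Rai14 and Tshz1 had log2 fold changes of -0.27, 0.54, 0.59 and -0.81 with adjusted p-values of 0.801, 0.732, 0.764 and 0.505 by edgeR.

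**Figure D2:**
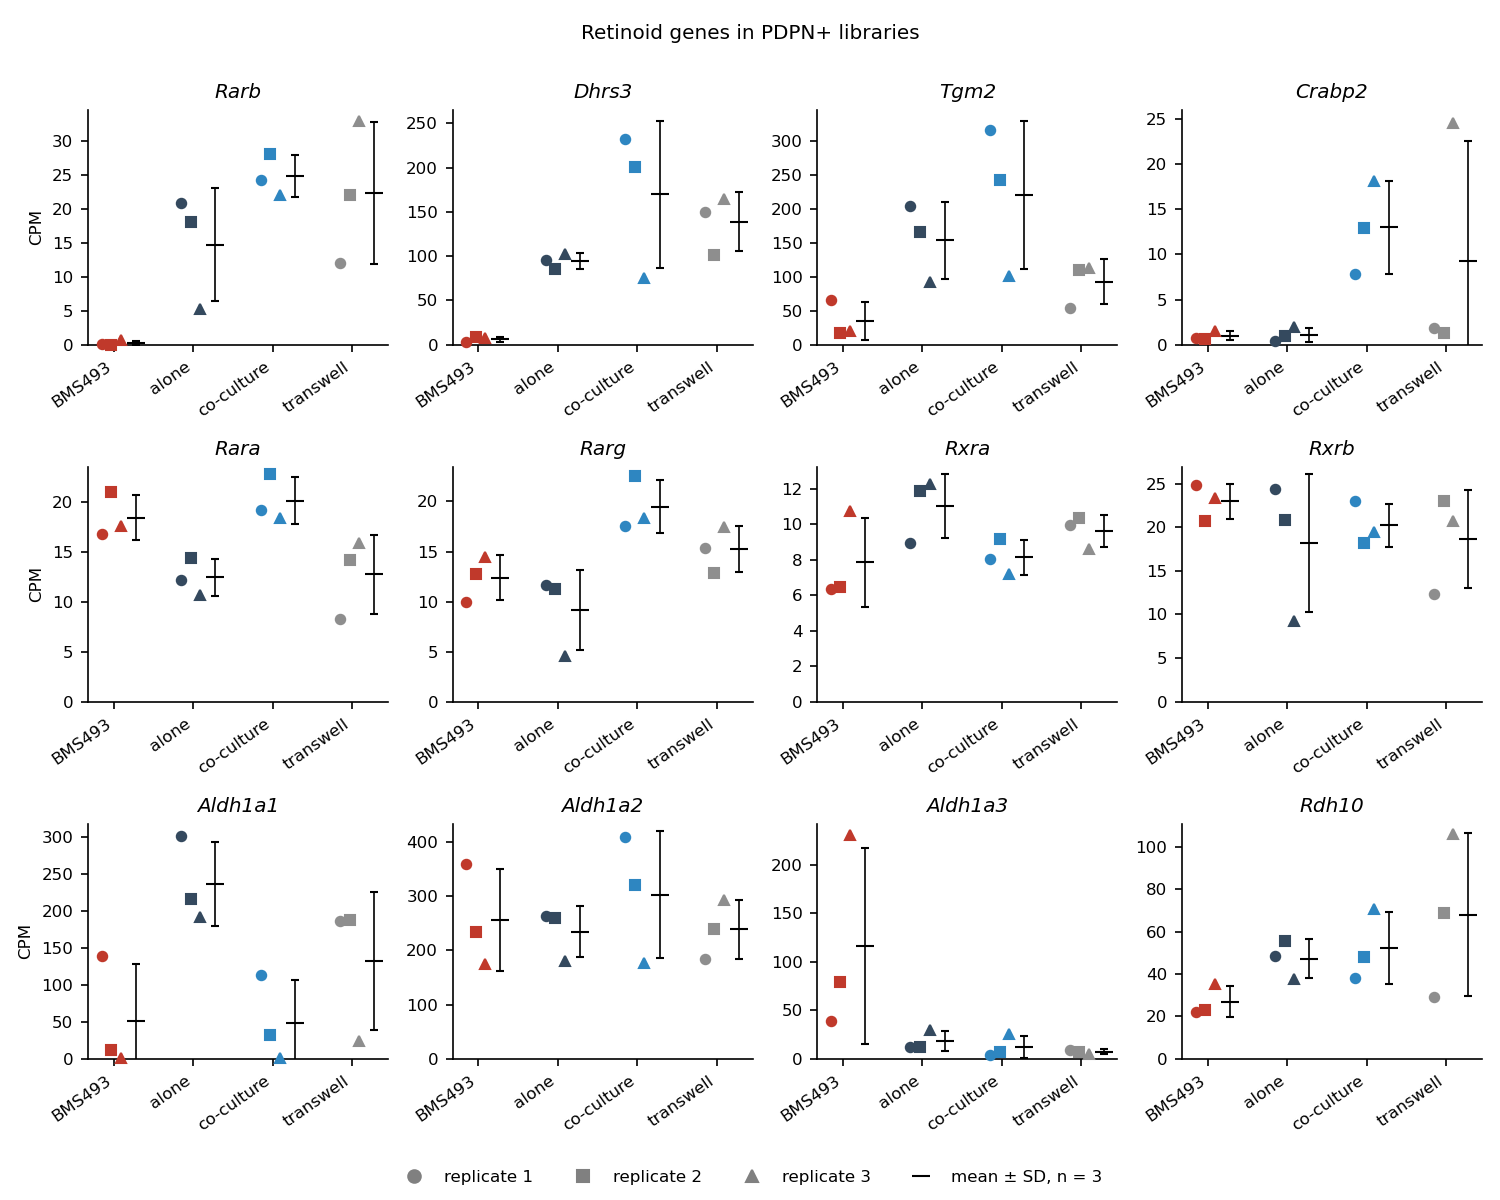
Levels of 12 retinoid genes in CPM (linear axes from 0) in BMS493, culture alone, co-culture and transwell libraries of PDPN+ cells, with 1 point per library, the shape marking the replicate, and bars for the mean ± SD of 3. Rarb and Dhrs3 lie below all 9 other libraries with BMS493, Aldh1a3 lies above all of them, and Rarg and Rxra overlap between BMS493 and culture alone.

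The receptors through which BMS493 acts were present and did not pass the test, apart from Rarb. Per length of transcript, in size-factor-adjusted RPKM (nRPKM), Rara was at 4.37 ± 0.60 with BMS493 and 2.95 ± 0.40 in culture alone. Rarg was at 3.70 ± 0.62 nRPKM with BMS493 and 2.72 ± 1.11 in culture alone, and Rarb at 0.0727 ± 0.0996 nRPKM with BMS493 and 4.36 ± 2.39 in culture alone (SD, n = 3 each). In culture alone the 3 receptor genes thus lay within each other's spread, and with BMS493 Rarb was by far the lowest. Rara had 16.8, 21.0 and 17.6 CPM with BMS493, against 12.2, 14.4 and 10.7 CPM in culture alone. Its groups did not overlap, but the difference was small and not called (log2 fold change 0.55, SE 0.27, adjusted p = 0.486 by edgeR).

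The RXR partners and coregulators were likewise uncalled. Rxra had 6.38, 6.44 and 10.7 CPM with BMS493, against 8.97, 11.9 and 12.3 CPM in culture alone (adjusted p = 0.533 by edgeR), and the values overlapped. Rxrb, the RXR gene with the higher level per length, was at 8.51 ± 0.73 nRPKM with BMS493 and 6.68 ± 2.73 nRPKM in culture alone (SD, n = 3 each). The corepressor Ncor1, which BMS493 is known to hold on the receptor, had 78.0, 109 and 107 CPM with BMS493, against 68.5, 106 and 91.3 CPM in culture alone (log2 fold change 0.12, adjusted p = 0.9 by edgeR). The coactivators Ncoa1, Ncoa2 and Ncoa3 and the orphan receptor Nr2f2 had log2 fold changes between -0.40 and 0.98, with adjusted p-values of at least 0.6025 by edgeR. Of the 14 tested receptor and coregulator genes, 1 (Rarb) fell and 0 rose, with a median log2 fold change of 0.23.

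Among the retinaldehyde dehydrogenases, which make retinoic acid, the 3 genes took 3 different courses. Aldh1a2, the main enzyme of mesothelium and embryo, measured 360.2, 235 and 175 CPM with BMS493, against 264, 260.3 and 179.8 CPM in culture alone, and overlapped fully (log2 fold change 0.13, SE 0.37, adjusted p = 0.889 by edgeR). Aldh1a1 measured 139, 11.5 and 0.911 CPM with BMS493, against 301, 216 and 192 CPM in culture alone. Every BMS493 library lay below every library of culture alone, yet the BMS493 values were far apart from each other and the gene was not called (log2 fold change -2.21, SE 1.59, adjusted p = 0.59 by edgeR). In co-culture Aldh1a1 had 113, 32.1 and 0.738 CPM, with replicate 1 the highest and replicate 3 the lowest as with BMS493.

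Aldh1a3 went the other way. It measured 39.1, 78.9 and 231 CPM with BMS493, against 12.3, 12.5 and 30.1 CPM in culture alone, 4.22, 6.59 and 25.7 CPM in co-culture and 9.51, 7.08 and 4.55 CPM in transwell culture. All 3 BMS493 libraries lay above all 9 others. Against culture alone it was not called (log2 fold change 2.60, SE 0.79, adjusted p = 0.252 by edgeR; 0.0203 by DESeq2). Against the mean of the other 3 PDPN+ groups in the same fit, a contrast added after the data were seen, it was higher by 3.26 on the log2 scale (adjusted p = 0.0306 by edgeR). Per length, Aldh1a2 was the highest of the 3 with BMS493 at 115 ± 43.8 nRPKM, beside 26.2 ± 22.2 for Aldh1a3 and 25.2 ± 38.4 for Aldh1a1. In culture alone, Aldh1a1 at 116 ± 24.1 and Aldh1a2 at 105 ± 18.2 nRPKM lay within each other's spread, and Aldh1a3 was at 4.25 ± 2.53 nRPKM (SD, n = 3 each).

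Genes of retinol oxidation and transport were not called by edgeR. Rdh10, the retinol dehydrogenase that feeds the Aldh1a enzymes, had 22.3, 23.2 and 35.4 CPM with BMS493, against 48.5, 55.7 and 37.6 CPM in culture alone, below without overlap but uncalled (log2 fold change -0.83, SE 0.41, adjusted p = 0.483 by edgeR). Rdh11 was level at 28.2, 32.2 and 25.3 CPM with BMS493, against 28.6, 28.9 and 30.1 CPM in culture alone. Fabp5, which can carry retinoic acid to PPARδ, had 40.8, 55.6 and 75.4 CPM with BMS493, against 239.6, 111 and 393 CPM in culture alone (adjusted p = 0.271 by edgeR and 0.0463 by DESeq2). Macrophages with BMS493 held 1401 CPM of Fabp5. Dhrs9, Rbp4 and Crabp1 had log2 fold changes of -0.92, 1.39 and 0.90 with adjusted p-values of 0.748, 0.534 and 0.742 by edgeR. Of the 15 tested genes of retinoid synthesis and transport, edgeR called 0. DESeq2 called 1 higher and 2 lower, where it called 2.17% and 1.45% of all genes. In the list, 2 lay above (13.3%) and 4 below (26.7%) all libraries of culture alone, against 9.45% and 8.86% of all genes. The median log2 fold change was -0.23. Without replicate 3 of culture alone, 3 lay above (20%) and 7 below (46.7%), against 13.9% and 16.9% of all genes.

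A further 13 genes fell, none of them a member of any gene list used here. Resf1, a factor that silences retroelements in embryonic stem cells, was the most even of them. It measured 22.8, 22.9 and 23.1 CPM with BMS493, against 84.2, 83.3 and 93.0 CPM in culture alone. The spread within each group was small beside the gap. Resf1 fell by 1.94 on the log2 scale (SE 0.25, adjusted p = 0.0275 by edgeR), and it was also lower than in co-culture, which had 123, 117 and 69.2 CPM (log2 fold change -2.18, adjusted p = 0.0297 by edgeR). It lies at chr6:149309414-149335663 (GRCm38).

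Slc43a3, a purine nucleobase transporter, measured 43.3, 44.4 and 51.9 CPM with BMS493, against 242, 226 and 222 CPM in culture alone. It was as cleanly split as Resf1 (log2 fold change -2.32, SE 0.38, adjusted p = 0.0421 by edgeR). Co-culture libraries had 256, 220.5 and 76.3 CPM. With the replicate block its adjusted p was 0.0501, and without the 2 libraries that stood apart it was 0.0612. Aifm2, the ferroptosis suppressor that reduces coenzyme Q, had the smallest of the called differences, with 7.46, 6.69 and 11.0 CPM with BMS493, against 25.7, 23.0 and 24.0 CPM in culture alone. Its groups were separate as well (log2 fold change -1.55, SE 0.25, adjusted p = 0.0421 by edgeR; 0.0513 without the 2 libraries that stood apart), and co-culture held 20.3, 25.8 and 28.3 CPM.

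Adamtsl1, a matrix protein related to the ADAMTS proteases but without their protease part, measured 7.54, 4.15 and 2.58 CPM with BMS493, against 42.4, 27.0 and 57.7 CPM in culture alone. Co-culture and transwell libraries lay with culture alone, between 25.5 and 44.5 CPM (log2 fold change -3.18 against culture alone, SE 0.46, adjusted p = 0.036 by edgeR). Etfbkmt, which methylates the beta subunit of the electron transfer flavoprotein of mitochondria, measured 3.78, 2.51 and 2.24 CPM with BMS493, against 34.7, 20.9 and 31.1 CPM in culture alone. It fell by 3.36 on the log2 scale (SE 0.54, adjusted p = 0.0413 by edgeR; 0.0576 without the 2 libraries that stood apart), and co-culture held 39.9, 31.8 and 9.02 CPM. Dpep1, a membrane dipeptidase, measured 14.8, 10.8 and 7.76 CPM with BMS493, against 62.5, 43.8 and 86.7 CPM in culture alone (log2 fold change -2.56, SE 0.45, adjusted p = 0.049 by edgeR). For Dpep1, co-culture held 29.9, 26.1 and 9.85 CPM, which overlapped BMS493. The adjusted p of Dpep1 was 0.0501 with the replicate block and 0.0968 without the 2 libraries that stood apart.

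Kng2, a kininogen gene, measured 0.529, 0.199 and 0.0506 CPM with BMS493, against 9.40, 5.11 and 19.9 CPM in culture alone (log2 fold change -5.52, SE 0.96, adjusted p = 0.049 by edgeR). It was not called with the replicate block (adjusted p = 0.0548) or without the 2 libraries that stood apart (0.0968). Co-culture held 1.92, 2.54 and 0.428 CPM of Kng2, which overlapped BMS493. Nxph1, a secreted neurexin ligand, was named after its values were seen because its BMS493 libraries held no read. It had 0 CPM in each BMS493 library, against 6.26, 4.13 and 1.26 CPM in culture alone, at least 178-fold lower when the BMS493 group is set to a floor of 3 counts over the group (adjusted p = 0.0413 by edgeR; 0.0502 without the 2 libraries that stood apart). Co-culture held 2.44, 0.833 and 1.21 CPM of Nxph1. The remaining lower genes were Tmem215, a small membrane protein gene with under 2 CPM in each library of culture alone, and 4 transcripts without an established name. Of these, Gm12840 measured 26.2, 12.4 and 110.2 CPM with BMS493, against 670.1, 769.5 and 597 CPM in culture alone, and Gm42503, which had the smallest adjusted p of the lower genes, 0.317, 0.572 and 0.827 CPM with BMS493, against 18.0, 12.5 and 30.7 CPM in culture alone (adjusted p = 0.0214 by edgeR). Without the 2 libraries that stood apart, Tmem215 and Gm12840 were not called (adjusted p = 0.0513 for Tmem215 and 0.0823 for Gm12840 by edgeR), and with the replicate block both were at 0.0501. These were named after their values were seen, and since the strand used in counting is not given, reads of overlapping genes cannot be told apart.

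Ndufa4l2 was the 1 gene outside the carry-over class that edgeR called higher than in culture alone, 0.00571% of the 17513 tested genes outside it. The gene encodes a mitochondrial protein that hypoxia induces and that dampens respiration. It measured 29.6, 17.9 and 32.6 CPM with BMS493, against 0.515, 0.5 and 0.897 CPM in culture alone, a wide and clean gap. It rose by 5.34 on the log2 scale (SE 0.93, adjusted p = 0.049 by edgeR; 0.0788 without the 2 libraries that stood apart). Macrophages held 1.28 CPM with BMS493 and 0 CPM in culture alone, less than the PDPN+ cells with BMS493 did. Co-culture without BMS493 had 16.1, 55.0 and 40.7 CPM of Ndufa4l2 and transwell culture 5.32, 4.55 and 43.8 CPM, and both ranges overlapped that of BMS493.

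The 30 other genes that edgeR called higher all had higher levels in macrophages, by the rule of the class. Adgre1, which encodes F4/80, measured 22.4, 67.1 and 40.4 CPM with BMS493, against 0.708, 1.03 and 1.23 CPM in culture alone (log2 fold change 5.42, SE 0.83, adjusted p = 0.0413 by edgeR; 0.0501 with the replicate block). Macrophages with BMS493 averaged 2126 CPM, and PDPN+ cells from co-culture 40.1, 38.5 and 62.5 CPM. The 2 integrin chains of complement receptor 3 moved with it. Itgam measured 8.47, 31.6 and 67.4 CPM with BMS493, against 0.644, 0.342 and 0.147 CPM in culture alone (log2 fold change 6.55, SE 0.85, adjusted p = 0.0275 by edgeR; 0.0548 without the 2 libraries that stood apart). Itgb2 measured 10.0, 34.5 and 79.3 CPM with BMS493, against 2.94, 2.16 and 1.91 CPM in culture alone (log2 fold change 4.11, SE 0.63, adjusted p = 0.0413 by edgeR; 0.0968 without the 2 libraries that stood apart). With BMS493 both were lowest in replicate 1 and highest in replicate 3, and the co-culture values, 56.6, 58.0 and 58.5 CPM of Itgam and 29.1, 36.0 and 53.3 CPM of Itgb2, lay within the BMS493 range.

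Lysozyme (Lyz2), an antibacterial enzyme of phagocytes, measured 1478, 3435 and 2178 CPM with BMS493, against 75.0, 32.1 and 42.6 CPM in culture alone (log2 fold change 5.56, adjusted p = 0.0477 by edgeR), and 2109, 1958 and 1376 CPM in co-culture. Cybb, the catalytic subunit of the phagocyte NADPH oxidase, averaged 45.9 ± 33.8 CPM with BMS493 and 0.577 ± 0.632 CPM in culture alone (SD, n = 3 each; adjusted p = 0.0443 by edgeR; 0.0501 with the replicate block and 0.05004 without the 2 libraries that stood apart). Adam8, a leukocyte metalloprotease, averaged 54.1 ± 24.7 CPM with BMS493 and 2.32 ± 1.14 CPM in culture alone (SD, n = 3 each; adjusted p = 0.0421 by edgeR; 0.0501 with the replicate block and 0.0513 without the 2 libraries that stood apart). Cd84, a leukocyte adhesion receptor, had 10.8, 22.9 and 22.3 CPM with BMS493, against 1.87, 1.37 and 1.83 CPM in culture alone. Cd84, named after its values were seen, had the smallest adjusted p of the 31 higher genes, 0.0214 by edgeR, beside a log2 fold change of 3.44.

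The level of these genes in PDPN+ libraries was a small and similar fraction of their level in macrophages. They were picked from these data as called higher and in the class, so a gene with little or uneven excess entered less easily. The narrow range is therefore a description and no test. Over the 30 genes, the excess of the BMS493 mean over the mean of culture alone had a median of 2.23% of the macrophage level with BMS493. It lay between 1.46% and 3.2% for 29 of them. The exception was F2rl2, a thrombin receptor gene, at 84.2%, with 0.794, 4.10 and 1.08 CPM in PDPN+ cells with BMS493, 0.0858, 0.0526 and 0.0183 CPM in PDPN+ cells alone and 2.30 CPM on average in macrophages with BMS493. F2rl2 is named here after its values were seen, and it was not called with the replicate block (adjusted p = 0.0501 by edgeR) or without the 2 libraries that stood apart (0.0868). Of the 30 genes, 29 had BMS493 values that overlapped those of co-culture, and 21 had a BMS493 mean above the co-culture mean.

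The 16 pan-macrophage marker genes also had a small excess beside the macrophage level, but a less even one. For the BMS493 mean it ran from -0.46% to 2.65%. By library it ran from -3.03% to 1.64%, from -3.31% to 3.38% and from 0.744% to 5.02% in BMS493 replicates 1, 2 and 3. Cd14 was the lowest in replicates 1 and 2. All but Cd14 lay above every library of culture alone with BMS493, and 3 of the 16 (Adgre1, Itgam and Lyz2) were called. Their summed level was 1698, 3988 and 2833 CPM with BMS493, against 136, 74.7 and 96.0 CPM in culture alone. Co-culture libraries summed to between 1804 and 2503 CPM. The median excess over culture alone was 0.867%, 2.43% and 2.79% of the macrophage level in the 3 BMS493 libraries, 1.53%, 1.496% and 1.47% in co-culture and 0.478%, -0.0066% and 0.019% in transwell culture. Cd14 measured 6.93, 5.12 and 57.7 CPM with BMS493, against 27.2, 24.1 and 27.1 CPM in culture alone. Whether macrophages stayed among the sorted PDPN+ cells or shed RNA into them was not tested.

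**Figure D3:**
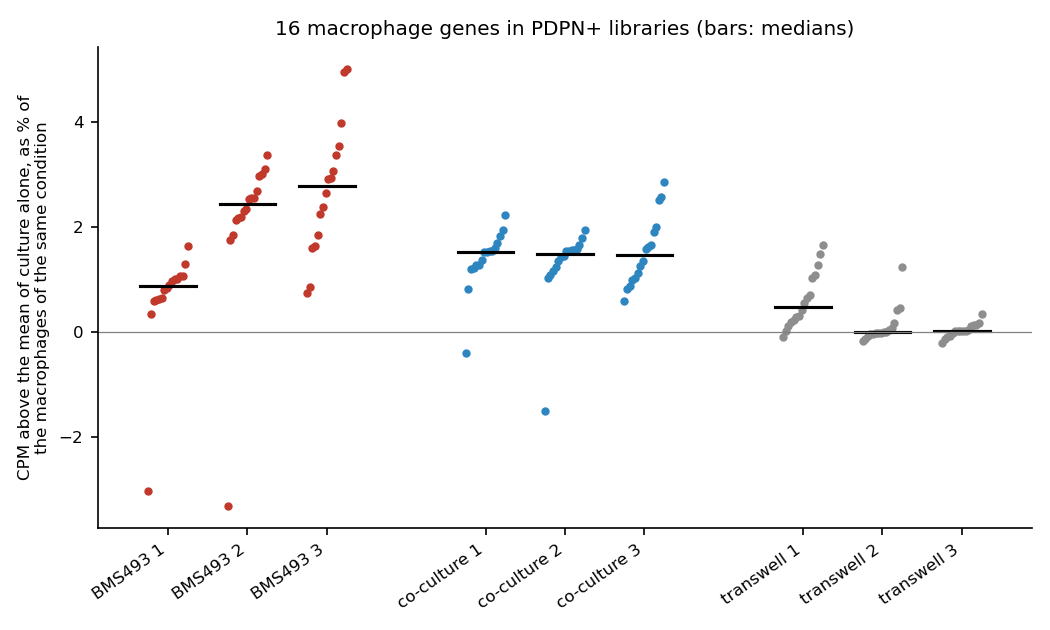
For 16 macrophage marker genes, the excess over the mean of culture alone in each BMS493, co-culture and transwell library of PDPN+ cells, as a percentage of that gene's mean level in macrophages of the same condition, with 1 point per gene and a bar at the library's median. Medians are 0.867%, 2.43% and 2.79% with BMS493, 1.53%, 1.496% and 1.47% in co-culture and below 0.5% in transwell culture.

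The carry-over class as a whole was shifted upward. Of the 1621 tested genes in it, 29.6% lay above all 3 libraries of culture alone and 3.15% below, with a median log2 fold change of 0.95. Of the 17513 genes outside it, 7.58% lay above and 9.39% below, with a median of -0.08. The class is defined with the same libraries of culture alone that are the baseline here. A gene that happened to be low in them enters the class more easily and also lies above them more easily. The size of the shift is therefore a description and no test. The line at 4 times fell between Notch2, at 3.99 times and outside, and Slc27a1, at 4.01 times and inside. At 2 times, at 10 times, or with BMS493-treated macrophages as the measure, the same counts of 30 higher genes inside and 1 outside were found, and at 2 times 1 lower gene, Dhrs3, was inside. All of these rules keep culture alone as the divisor.

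Set against co-culture, the 15 lower genes mostly stood apart and the higher genes did not. With BMS493, 13 of the 15 lower genes lay below all 3 co-culture libraries, where 5.01% of all genes did (and 4.11% above), although the BMS493 libraries are the same in both comparisons. In that comparison 3 genes passed the test, all lower with BMS493 and outside the carry-over class: Dhrs3, Resf1 and Gm42503 (0.0157% of genes tested, 0.0171% of those outside the class). No gene was higher by edgeR, 584 genes in either direction had an unadjusted p under 0.05, and DESeq2 called 28 higher (0.146%) and 79 lower (0.413%). The count was 0 with the replicate block. It was also 0 without BMS493 replicate 1 or 2 and without co-culture replicate 1 or 2, and it was 18 without BMS493 replicate 3 and 8 without co-culture replicate 3.

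A contrast of BMS493 with the mean of the other 3 PDPN+ groups, added after the data were seen, uses all 12 libraries and called 103 genes (0.538%), 75 higher (0.392%) and 28 lower (0.146%). Of all genes tested, 0.862% lay above and 0.904% below all 9 other PDPN+ libraries. Outside the carry-over class these were 19 higher (0.108%) and 27 lower (0.154%). The genes named from it were chosen after their values were seen. The rule took called genes outside the class whose BMS493 libraries lay all above or all below the 9 others. That separation was thus a condition of being named from this contrast and is no further result. This contrast shares its BMS493 libraries, its fit and part of its reference libraries with the comparisons with culture alone and with co-culture. Its values are therefore no separate support for genes called there. In it, Rarb, Dhrs3, Resf1, Slc43a3, Adamtsl1, Etfbkmt and Aifm2 were lower. Their adjusted p-values were 0.0223, 0.0071, 0.00816, 0.0223, 0.0204, 0.0223 and 0.0204 by edgeR. Dpep1 was not called (log2 fold change -1.85, adjusted p = 0.0689 by edgeR). Neither was Kng2, at -4.08 with 0.0686. Between 0 genes without BMS493 replicate 2 and 121 without transwell replicate 1 were called when 1 library was left out, with 36 without BMS493 replicate 3, 46 and 17 without replicates 1 and 2 of culture alone, 13 and 10 without co-culture replicates 1 and 2, 50 without transwell replicate 2 and 176 without the 2 libraries that stood apart.

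Pleiotrophin (Ptn), a heparin-binding growth factor, was the gene that set BMS493 most strongly apart from all other PDPN+ libraries. It measured 40.5, 82.1 and 76.7 CPM with BMS493, against 2.17, 1.40 and 2.27 CPM in culture alone, 1.30, 1.45 and 0.167 CPM in co-culture and at most 0.77 CPM in transwell culture. The BMS493 libraries thus lay over an order of magnitude above the other 9. Ptn was higher by 6.12 on the log2 scale against the other groups (adjusted p = 0.00442 by edgeR) and by 5.07 against culture alone (adjusted p = 0.0527). Macrophages with BMS493 held 2.11 CPM of it.

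Gprin3, a G protein-regulated inducer of neurite outgrowth, measured 39.0, 40.5 and 55.2 CPM with BMS493, against 11.1, 6.26 and 6.81 CPM in culture alone and at most 7.07 CPM in co-culture or transwell culture (log2 fold change against the other groups 2.86, adjusted p = 0.00995 by edgeR). The matrix genes P4ha3 and Col15a1 were also above all 9 other libraries. P4ha3, a prolyl hydroxylase that collagen folding needs, measured 57.4, 63.9 and 118 CPM with BMS493, against 12.1, 17.9 and 14.3 CPM in culture alone and 35.5, 48.9 and 34.3 CPM in co-culture (log2 fold change 2.01, adjusted p = 0.0223 by edgeR). Col15a1, a collagen of the basement membrane zone, measured 11.8, 21.8 and 16.9 CPM with BMS493, against 5.08, 6.97 and 7.38 CPM in culture alone (log2 fold change 1.63, adjusted p = 0.0261 by edgeR). For both, co-culture lay between or with culture alone. The guanine nucleotide exchange factor Arhgef28, the glutamate transporter Slc1a3, the axon-glia adhesion protein Gldn and Klhdc8a were also higher than in the other groups, by 1.59, 2.78, 5.10 and 2.48 on the log2 scale with adjusted p-values of 0.0432, 0.0477, 0.0422 and 0.0435 by edgeR. Against culture alone, Gprin3, Col15a1, Arhgef28, Gldn and Klhdc8a were not called (adjusted p = 0.0864, 0.183, 0.0537, 0.212 and 0.178 by edgeR). Gldn rose by 5.07 on the log2 scale in that comparison, and by 3.33 without BMS493 replicate 3.

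Lower than in the other groups were Hoxa5, Gabra3 and Stbd1, besides the genes above. Hoxa5, a homeobox gene of the anterior HoxA cluster, which retinoic acid is known to induce, measured 18.7, 14.5 and 10.4 CPM with BMS493, against 48.2, 45.2 and 64.1 CPM in culture alone and 44.3, 45.8 and 33.3 CPM in co-culture. All 9 other libraries were higher (log2 fold change -1.82, adjusted p = 0.0265 by edgeR), while against culture alone it just missed the threshold (-1.88, SE 0.34, adjusted p = 0.0537). Gabra3, a subunit of the GABA-A receptor, measured 0.45, 2.61 and 1.91 CPM with BMS493, against 127, 88.5 and 33.6 CPM in culture alone and 112, 59.7 and 6.83 CPM in co-culture (log2 fold change -5.29, adjusted p = 0.0392 by edgeR). Against culture alone Gabra3 was not called (adjusted p = 0.0537 by edgeR). Stbd1, which tethers glycogen to membranes, measured 29.3, 50.9 and 41.6 CPM with BMS493, against 126, 106 and 108 CPM in culture alone (log2 fold change -1.34, adjusted p = 0.0485 by edgeR).

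**Figure D4:**
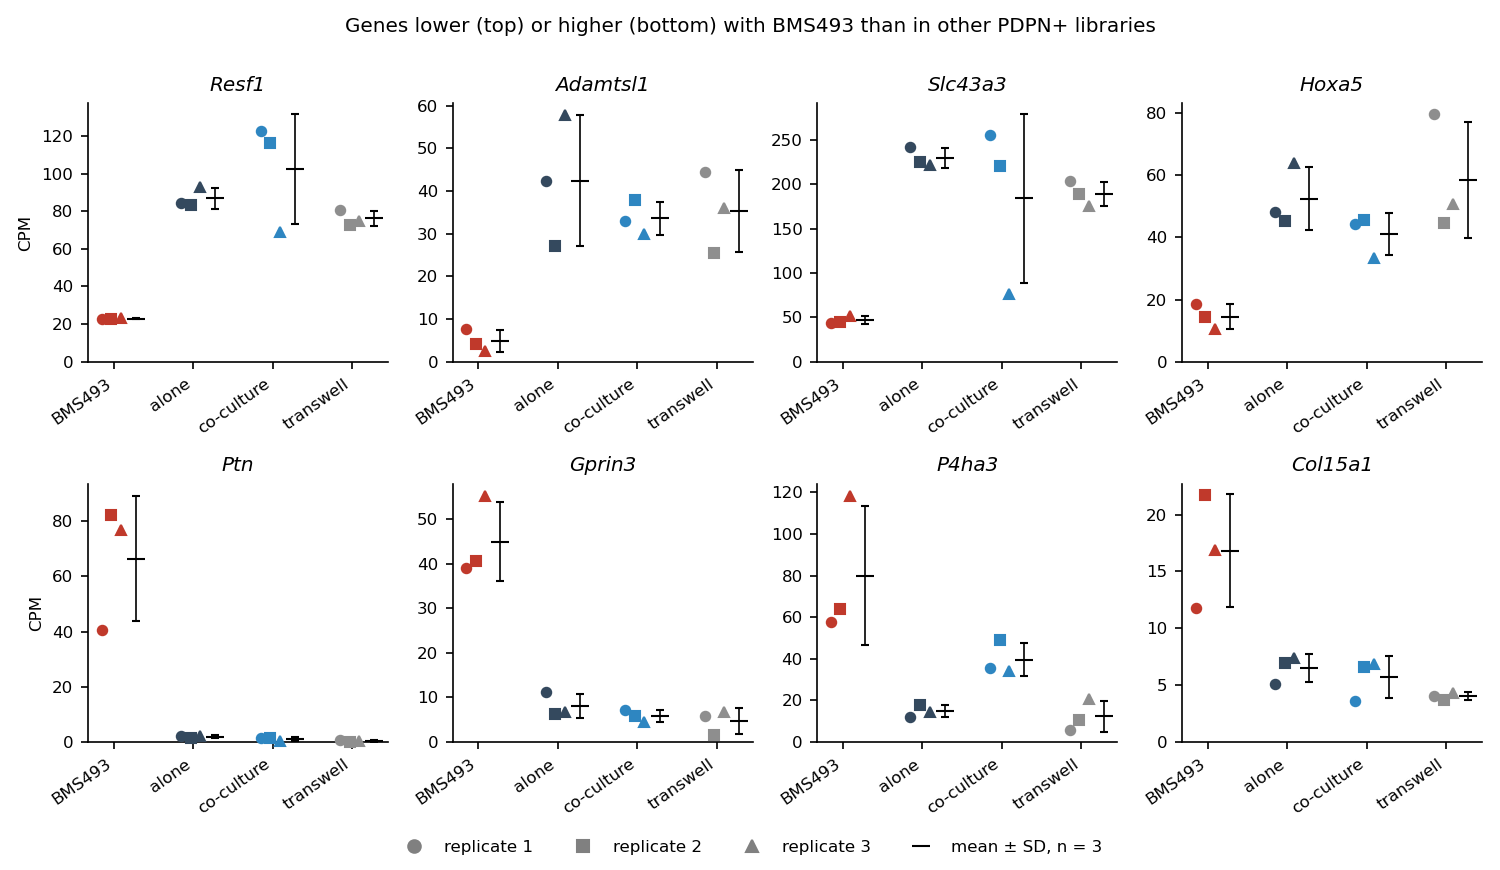
Levels in CPM (linear axes from 0) of 4 genes lower (top) and 4 higher (bottom) with BMS493 than in the other PDPN+ groups, with 1 point per library, the shape marking the replicate, and bars for the mean ± SD of 3. With BMS493, the top genes (Resf1, Adamtsl1, Slc43a3 and Hoxa5) lie below and the bottom genes (Ptn, Gprin3, P4ha3 and Col15a1) above all 9 other libraries. For Hoxa5 and the bottom genes this separation was a condition of being named.

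Beyond the retinoid and macrophage lists, no list of stromal or metabolic genes had a member called by edgeR against culture alone. DESeq2, which called 2.17% of all genes higher and 1.45% lower, called members of several of them. It called 6 of 19 higher and 0 lower in the unfolded protein list, and 6 of 18 higher and 1 lower among complement genes. All 3 tested adipocyte genes were lower by DESeq2. It called none of the matrix remodelling, cell cycle, cholesterol synthesis or heat shock genes. The lists are described by how many members lay outside the range of culture alone, beside 9.45% above and 8.86% below for all genes. Of 21 tested Hox genes, which specify position along the body and respond to retinoic acid in the embryo, 0 lay above and 5 below (23.8%), with a median log2 fold change of -0.95. Apart from Hoxa5, these included Hoxa2, with 3.97, 2.91 and 1.28 CPM with BMS493 against 5.99, 6.58 and 5.24 CPM in culture alone, and Hoxa7, with 7.67, 6.14 and 2.50 CPM with BMS493 against 12.8, 9.74 and 13.9 CPM in culture alone. Without the 2 libraries that stood apart the Hox median was -0.38, and against co-culture it was -0.62.

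Hypoxia and glycolysis genes lay high as a group. Of 22 tested, 17 lay above all libraries of culture alone (77.3%) and 1 below, with a median log2 fold change of 1.21. The glucose transporter Slc2a1 measured 110.3, 167 and 307 CPM with BMS493, against 38.9, 54.7 and 32.8 CPM in culture alone (adjusted p = 0.271 by edgeR), and Pgk1, a glycolytic kinase, 368, 475 and 559 CPM with BMS493 against 144, 154 and 204 CPM in culture alone (adjusted p = 0.293 by edgeR). Ndrg1, a hypoxia-induced gene, measured 156, 94.2 and 172 CPM with BMS493, against 51.2, 41.3 and 31.3 CPM in culture alone (log2 fold change 1.76, SE 0.36, adjusted p = 0.0911 by edgeR). The group did not stand above co-culture, against which its median log2 fold change was -0.11. The exception was the peptide hormone adrenomedullin (Adm), with 16.4, 9.12 and 30.2 CPM with BMS493, against 225, 114 and 119 CPM in culture alone (log2 fold change -3.06, SE 0.73, adjusted p = 0.134 by edgeR) and 34.1, 16.1 and 37.4 CPM in co-culture.

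The unfolded protein and amino acid stress list behaved alike, with 13 of 19 members above (68.4%), 0 below and a median log2 fold change of 0.90, against 0.11 relative to co-culture. Trib3, a pseudokinase induced by the stress factor ATF4, measured 73.8, 107 and 114 CPM with BMS493, against 12.9, 13.8 and 16.1 CPM in culture alone and 62.6, 129 and 84.8 CPM in co-culture (log2 fold change 2.75, SE 0.57, adjusted p = 0.0895 by edgeR). Herpud1, a factor of protein breakdown at the endoplasmic reticulum, measured 124, 141 and 149 CPM with BMS493, against 66.1, 59.5 and 58.0 CPM in culture alone (log2 fold change 1.16, adjusted p = 0.0886 by edgeR). Chac1, which degrades glutathione, had an adjusted p of 0.185 and passed the test, at 0.0495, only without the 2 libraries that stood apart.

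Markers of mesothelium, the lining of body cavities, lay low without a member called by edgeR. Of 25 tested, 11 lay below culture alone (44%) and 1 above, with a median log2 fold change of -1.88. The transcription factors Wt1 and Gata6 measured 35.2, 27.4 and 10.1 CPM (Wt1) and 114, 67.2 and 14.7 CPM (Gata6) with BMS493, against 59.9, 59.7 and 54.1 CPM (Wt1) and 148, 196 and 120.3 CPM (Gata6) in culture alone. Their adjusted p-values were 0.42 and 0.537 by edgeR. The surface proteins uroplakin 3b and Lrrn4 ranged most widely. Upk3b measured 188, 34.2 and 0.27 CPM with BMS493, against 1109, 799.8 and 682 CPM in culture alone and 372, 32.6 and 0.0714 CPM in co-culture (adjusted p = 0.543 by edgeR). Lrrn4 measured 128, 11.0 and 0 CPM with BMS493, against 541, 599 and 125 CPM in culture alone. In both BMS493 and co-culture, replicate 1 was the highest and replicate 3 the lowest for Upk3b, and the list's median against co-culture was -0.03.

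Collagen chains and a part of the fibroblast markers lay the other way. Matrix remodelling genes did not, with 10% above culture alone against 9.45% of all genes. Of 25 collagen chains, 11 lay above culture alone (44%) and 0 below, with a median log2 fold change of 0.80. Of 22 fibroblast markers, 9 lay above and 2 below, with a median of 0.20. Against co-culture the medians were 0.40 for collagen chains and 0.00 for fibroblast markers. Col5a1 measured 376, 640.1 and 1072 CPM with BMS493, against 173, 227 and 145 CPM in culture alone (log2 fold change 1.92, SE 0.43, adjusted p = 0.115 by edgeR), and the collagen receptor chain Itga11 110.2, 144.5 and 134 CPM with BMS493 against 25.3, 31.1 and 4.30 CPM in culture alone (adjusted p = 0.251 by edgeR). Fap, the fibroblast activation protease, was an exception, with 1.22, 0.323 and 1.06 CPM with BMS493 against 6.67, 7.29 and 4.21 CPM in culture alone (log2 fold change -2.81, SE 0.59, adjusted p = 0.0911 by edgeR). Replicate 3 of culture alone was the lowest of its group in Col1a1, Col5a1 and Itga11. Without that replicate, 11 collagen chains still lay above the remaining libraries of culture alone and 3 below, where 13.9% and 16.9% of all genes did.

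Type I interferon-induced genes lay low, with 9 of 26 below culture alone (34.6%), 1 above and a median log2 fold change of -1.11. Without replicate 3 of culture alone, 20 of the 26 lay below (76.9%), against 16.9% of all genes. The list's median against co-culture was -0.42. Oasl2 measured 10.7, 2.24 and 4.02 CPM with BMS493, against 34.0, 37.3 and 17.8 CPM in culture alone (log2 fold change -2.39, SE 0.61, adjusted p = 0.172 by edgeR), and Usp18, which damps interferon signalling, 2.43, 0.621 and 1.59 CPM with BMS493 against 6.80, 6.58 and 7.49 CPM in culture alone (adjusted p = 0.289 by edgeR). Of 25 genes of cholesterol and fatty acid synthesis, 7 lay below and 2 above, with a median of -0.38. The adipocyte genes had 3 tested members, all below culture alone. Of these, Fabp4 measured 4.92, 5.62 and 15.7 CPM with BMS493, against 161, 69.0 and 308 CPM in culture alone (log2 fold change -4.42, SE 0.82, adjusted p = 0.0561 by edgeR; 0.0496 with the replicate block), and Adipoq, the adipocyte hormone adiponectin, 0 CPM in each BMS493 library against 2.34, 0.395 and 0.696 CPM in culture alone.

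The remaining lists are given by their counts. Contractile genes had 4 of 17 above and 0 below, matrix remodelling genes 3 of 30 above and 1 below, genes of TGF-beta, BMP and activin signalling 6 of 32 above and 4 below, and Wnt genes 2 of 23 above and 4 below. Cytokines and chemokines had 7 of 37 above and 6 below, complement genes 7 of 18 above and 3 below, and the MHC and interferon gamma list 1 of 20 in each direction. Cell cycle genes had 0 of 29 above and 2 below with a median log2 fold change of 0.16. Heat shock genes had 2 of 12 above and 3 below, immediate early genes 3 of 20 above and 2 below, macrophage niche factors 2 of 17 above and 3 below, and IGF family genes 0 of 10 above and 2 below. The cavity macrophage programme, expressed mainly in macrophages, had 6 of 19 above and 4 below, and the alternative activation list 2 of 7 above and 1 below. Markers of B cells (3 tested), T cells (3), granulocytes (2), mast cells (4), endothelium (2) and smooth muscle (5) had at most 1 member outside the range of culture alone in each list.

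**Figure D5:**
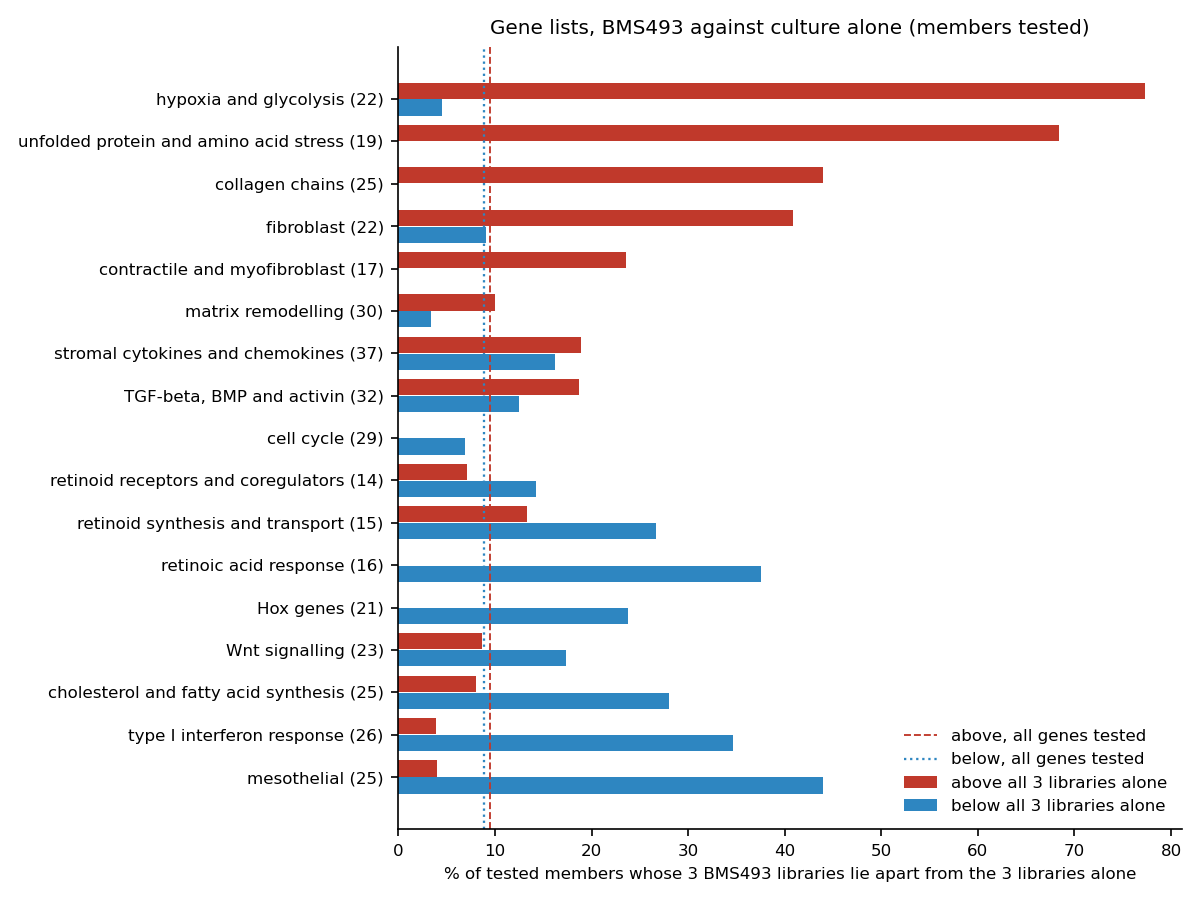
For 17 gene lists, the percentage of tested members whose 3 BMS493 libraries all lay above, or all below, the 3 libraries of culture alone, with lines at the 9.45% and 8.86% found over all genes tested. The hypoxia and glycolysis list and the unfolded protein list stand highest above, and the mesothelial and retinoic acid response lists highest below.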

How the data were processed

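RNA of sorted PDPN+ and F4/80+ cells was sequenced as polyA libraries. Reads were aligned with GSNAP to GRCm38, per the submitters' processing notes. For the aligner's version, the annotation, the strand used in counting and any filters, the sources used here give nothing. Per the file headers, each deposited file gives raw counts of uniquely aligning reads for 50764 gene models and, as nRPKM, size-factor-adjusted RPKM values. Counts were used for all tests and nRPKM for levels between genes. Symbols and coordinates came from GENCODE M21 (GRCm38), and the 192 IDs without a symbol held 0.0358% of all counts.

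The 12 PDPN+ libraries were fitted by group in edgeR 4.0.16 (R 4.3.3, limma 3.58.1) with TMM scaling and edgeR's filter on low counts by group, which left 19134 genes. The quasi-likelihood test was used with Benjamini-Hochberg adjustment over all of them and a threshold of 0.05 on the adjusted p. The standard error was the log2 fold change divided by the square root of F. The 4 PDPN+ groups share 1 estimate of the spread (common biological coefficient of variation 0.573). CPM were scaled by TMM over all 30 libraries. The script was tested on simulated counts. Tables were handled with pandas 2.3.3 and scipy 1.17.1.

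Alternatives were DESeq2 1.42.0, its RLE size factors in edgeR, no filter, a fit of 6 libraries, the replicate block, each library left out, other rules for the carry-over class and, added after the data were seen, leaving out the 2 libraries that stood apart and the contrast with the other 3 PDPN+ groups. The replicate numbers pair the libraries because the labels tie them to a shared mbatch value. The deviations of BMS493 and culture alone from their group means correlated at 0.173, 0.153 and 0.0404 for replicates 1, 2 and 3, and those of BMS493 and co-culture at 0.724, 0.209 and 0.601. The genes named are the called ones with at least 10 CPM on average in the higher group, groups that do not overlap and an established symbol (up to 14 per direction outside the carry-over class and 6 within), the retinoid list members with at least 1 CPM (some are counted in their lists but not reported here by name), examples from the 33 gene lists, and Adgre1, Pdpn, Wt1, Gata6, Cyp26a1 and Rarb. Examples of uncalled members of the other lists, and the genes of the added contrast, were chosen after their values were seen. The comparison and the lists were chosen with earlier results of these data known. Counting intervals and the floor of 3 counts cover counting error only.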

Additional observations from a re-analysis of the deposited data

How the results depend on the processing

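Against culture alone, 46 genes were called in all and 16 outside the carry-over class. Those 2 counts were 41 and 25 with the replicate block, 15 and 11 in a fit of the 6 libraries alone, 0 and 0 in that fit with the replicate block, 693 and 428 with DESeq2, 78 and 27 without the filter on low counts, and 54 and 20 with RLE scaling. Without the 2 libraries that stood apart they were 42 and 19, and 238 and 154 with the replicate block as well. With 1 library left out they ranged between 0 and 27 and between 0 and 17. All 46 genes kept their direction in these fits. Outside the class the count was 15 at 2 times and 16 at 10 times or with BMS493-treated macrophages. Against co-culture the 3 calls became 0 with the replicate block, 0 in the 6-library fit, 107 with DESeq2, 6 without the filter, 3 with RLE scaling and 2 without the 2 libraries, and ranged between 0 and 18 with 1 library left out. Against the other PDPN+ groups the 103 calls became 115 with the replicate block, 102 with RLE scaling, 162 without the filter, 176 without the 2 libraries, 572 with the replicate block as well, and between 0 and 121 with 1 library left out. For single named genes, settings in which the test's side of the threshold changed numbered 34 gained and 134 lost calls against culture alone (734 unchanged), 23 and 13 against co-culture (742 unchanged), and 15 and 174 against the other groups (916 unchanged). No named gene changed direction among called values. The cause of these shifts was not tested. The common coefficient of variation between libraries was 0.573, and for genes with few reads, such as Nxph1 and Cyp26b1, the depth leaves only a floor or a wide counting interval.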

Other observations

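The lower genes Etfbkmt and Resf1 lie 158242 bases apart on chromosome 6, the only pair of lower called genes within 1 Mb of each other. The tested genes between them did not pass the test. Amn1 measured 13.0, 11.5 and 15.2 CPM with BMS493, against 16.1, 11.5 and 18.8 CPM in culture alone (log2 fold change -0.25, SE 0.31, adjusted p = 0.744 by edgeR). 1700003I16Rik and Gm10388 had log2 fold changes of 0.12 and -0.63 with adjusted p-values of 0.958 and 0.642 by edgeR. The pair was chosen after its values were seen.

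A few secreted factors were high in 1 BMS493 library, replicate 3, made from 8229 cells, and were not called. Inhba, the activin A subunit, measured 39.4, 207 and 3605 CPM with BMS493, against 29.4, 39.4 and 39.2 CPM in culture alone and 63.6, 224.5 and 1117 CPM in co-culture (log2 fold change 5.09, SE 1.56, adjusted p = 0.253 by edgeR). Postn, the matrix protein periostin, measured 156, 517 and 3256 CPM with BMS493, against 124, 114 and 80.0 CPM in culture alone (adjusted p = 0.309 by edgeR). The cytokine Il11 measured 1.32, 3.90 and 146 CPM with BMS493, against 0.686, 0.395 and 0.202 CPM in culture alone (adjusted p = 0.161 by edgeR). Co-culture replicate 3, of the same mbatch and made from 2148 cells, was the highest of its group for all 3 genes. These genes were named after their values were seen.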
